A study of Mus musculus with 4 samples.

Results

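The skeletal muscle genes of the mouse were examined on arrays of the spinal cord and the duodenum. The set held 40 genes, represented by 51 probes, of the 32585 genes or identifiers on the array, of which 20144 carried a gene symbol. By fibre type, 14 genes were listed as fast, 7 as slow and 19 as shared by both. Each gene was found through the RefSeq accession of its probes. They were selected on their spinal cord signals, higher on the array labelled KO than on the WT array, as already seen in these data, so the levels and differences below are descriptions and carry no test.

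RNA came from male mice of 20 weeks, either *IP6K2*-KO or WT littermates. The knockout allele lacks an exon of the kinase domain in all cells of the animal. Every mouse had been kept on CE-2 chow, was moved to purified iVid-neo diet 1 week before the end and then went without food for 48 h. Each genotype was represented by a single array per tissue, 4 in all on 1 slide. No difference therefore has a replicate check, and precision is limited by the number of arrays. The labels do not say whether the spinal cord and the duodenum of a genotype came from the same animal, or whether tissue was pooled.

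Skeletal muscle contracts when myosin thick filaments slide along actin thin filaments within the sarcomere, whose ends are anchored in the Z-disc. Calcium released from the sarcoplasmic reticulum binds troponin and exposes the actin filament to myosin. Fast and slow fibres use different genes for many of the same filament proteins, and both draw on creatine kinase and glycolysis for ATP. The spinal cord itself contains the motor neurons that drive these fibres but no skeletal muscle fibres, and the wall of the duodenum contains smooth muscle.

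The values are processed spot signals, in arbitrary intensity units. Each difference is the log2 signal minus the 75th percentile of its array, with the WT array subtracted from the array labelled KO of the same tissue. In the order WT spinal cord, spinal cord labelled KO, WT duodenum and duodenum labelled KO, the 75th percentile was 905, 971, 68.0 and 323. In the same order, 75.5%, 76.1%, 51.8% and 65.6% of all genes were well above background. On the spinal cord array labelled KO the *Ip6k2* probe (NM_029634) gave 1320.3, higher than the 452 of the WT array by 1.45 on the log2 scale. This does not bear out the label. In the duodenum it gave 139 on the WT array and 572 on that labelled KO, a difference of −0.21. The files do not place this probe relative to the deleted exon, so it can neither bear out nor contradict the labels. Genotypes are given as labelled. Of 11 neural markers on the array, all 11 were well above background on both spinal cord arrays, and all 12 markers of duodenal epithelium were so on both duodenum arrays.

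Skeletal muscle transcripts were detected on both spinal cord arrays and were more abundant on the array labelled KO. Of the 40 genes, 38 were well above background on the WT spinal cord array, 40 on the spinal cord array labelled KO, 19 on the WT duodenum array and 24 on the duodenum array labelled KO. On the WT spinal cord array this included 13 of the 14 fast genes, all 7 slow genes and 18 of the 19 shared genes. In the spinal cord, 33 of the 40 genes were at least 2-fold higher on the array labelled KO, against a background of 2.28% of the 25225 genes tested. None was at least 2-fold lower, against a background of 0.892%. The median difference of the 40 genes was 3.30, a 9.86-fold higher signal, when the median of all genes was −0.04. Because this contrast was in view when the genes were chosen, nothing is read from these shares. In a bulk sample, more cells of a type and more RNA per cell cannot be told apart.

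The size of the spinal cord difference varied widely within the set, from 0.01 for *Myod1* to 4.58 for *Ckm*. By the size of the fold, 24 genes were at least 8-fold higher, 9 were between 2-fold and 8-fold, and 7 were under 2-fold. Those 7 were *Pvalb*, *Casq1*, *Myh7*, *Tnni1*, *Tnnc1*, *Pygm* and *Myod1*. The gene just inside the 2-fold threshold was *Chrna1* at 1.16 and the gene just outside it was *Casq1* at 0.88. A range of 14-fold to 18-fold, chosen after the values were seen, held 13 of the 40 genes, against 24 of all 25225. Repeated spots of probes of like brightness gave a technical SD of 0.06 to 0.40 for these differences, an error of the array surface that leaves out the spread between mice.

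**Figure D1:**
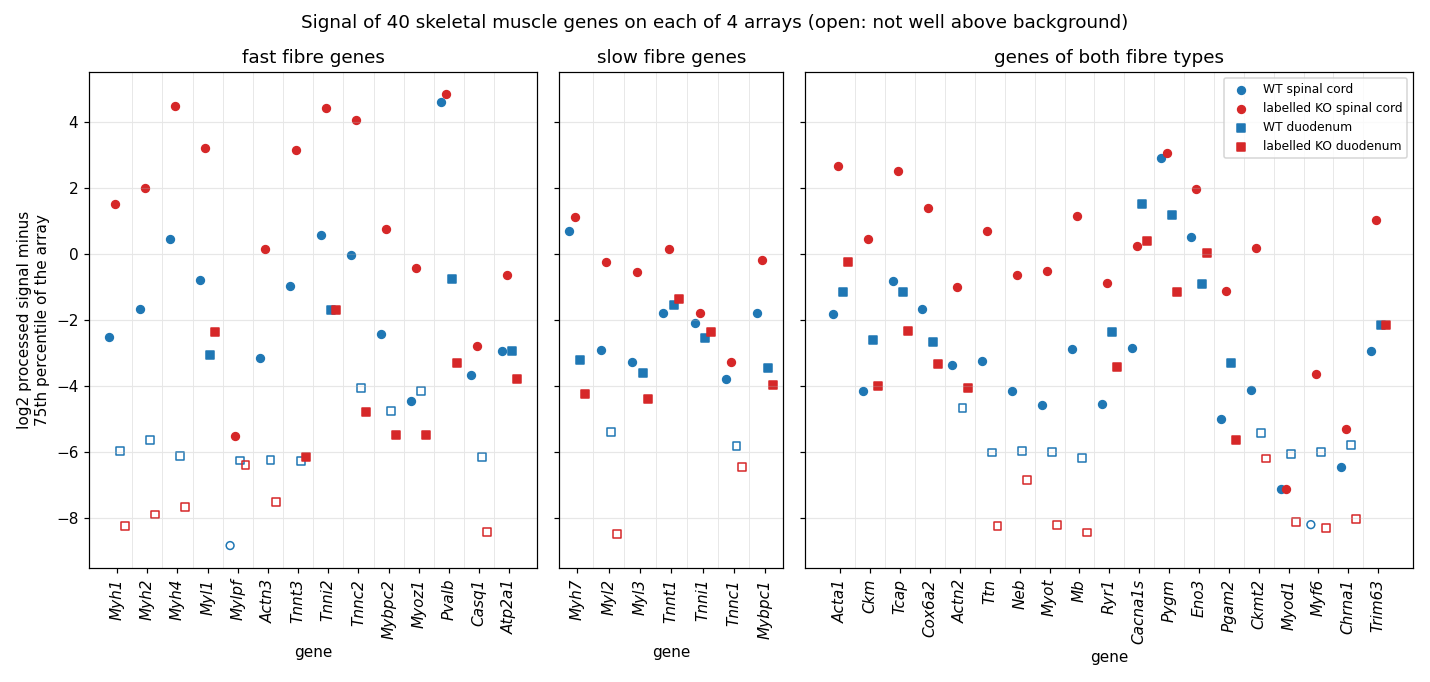
Normalized log2 signal (processed signal minus the 75th percentile of the array) of the 40 skeletal muscle genes on each of the 4 arrays, in panels for fast, slow and shared genes. Each point is 1 array, with no error bar, and open points were not well above background. Most genes lie far higher on the spinal cord array labelled KO than on the WT spinal cord array, while *Pvalb*, *Pygm* and *Myod1* lie close together on both.

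Signals of single genes are given below in the order WT spinal cord, spinal cord labelled KO, WT duodenum and duodenum labelled KO. Each probe has its own brightness, so levels are compared between arrays and not between genes.

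The myosin thick filament was represented by 10 genes, of which 9 were at least 2-fold higher on the spinal cord array labelled KO, with a median difference of 2.95. *Myh4* (NM_010855), the heavy chain of the fastest fibres, gave 1246, 21634, 0.984 and 1.61. Its spinal cord difference was 4.02, or 16.2-fold, and it was not well above background on either duodenum array. *Myh1* (NM_030679), another fast heavy chain, gave 159, 2771, 1.08 and 1.08, a difference of 4.02. *Myh2* (NM_001039545), the heavy chain of fast oxidative fibres, gave 283, 3865, 1.36 and 1.37, a difference of 3.67. *Myh2*, *Myh1* and *Myh4* follow each other in the genome with no protein-coding gene between neighbours, and their sequences are closely alike, so their probes may share transcripts and their values are uncertain as 3 separate genes. *Myh7* (NM_080728), the heavy chain of slow fibres and of the heart, gave 1463, 2093, 7.43 and 17.2, a difference of only 0.42.

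The myosin light chains bind the neck of the heavy chain. *Myl1* (NM_021285), the fast essential light chain, gave 522, 9054, 8.21 and 63.5, a spinal cord difference of 4.01. *Myl3* (NM_010859), its slow counterpart, gave 93.7, 659.9, 5.64 and 15.3, a difference of 2.71. *Myl2* (NM_010861), the slow regulatory light chain, gave 120.9, 822, 1.62 and 0.907, a difference of 2.66. The fast regulatory chain could only be bounded. *Mylpf* (NM_016754) gave 2.0, 21.2, 0.895 and 3.85, was not well above background on the WT spinal cord array, and was at least 4.42-fold higher on the array labelled KO, a bound of 2.14 that went to 0 with normexp background correction and to 0.36 with flagged local backgrounds replaced. Myosin-binding protein C stabilizes the filament, and its fast form *Mybpc2* (NM_146189) gave 169, 1652, 2.52 and 7.22, a difference of 3.19. The slow form *Mybpc1* (NM_175418) gave 261, 861, 6.27 and 20.7, a difference of 1.62.

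Of the 7 thin filament genes, 5 were at least 2-fold higher on the spinal cord array labelled KO, with a median difference of 3.84. *Acta1* (NM_009606), the actin of skeletal muscle, gave 256, 6142, 30.9 and 273, a spinal cord difference of 4.48. Troponin T ties the troponin complex to tropomyosin. Its fast form *Tnnt3* (NM_001163664) gave 458, 8545, 0.882 and 4.57, a difference of 4.12, and its slow form *Tnnt1* (NM_011618) gave 262, 1080.1, 23.4 and 126, a difference of 1.94. Troponin I holds the filament in the off state. Its fast form *Tnni2* (NM_009405) gave 1354, 20746, 21.2 and 99.2, a difference of 3.84, whereas the slow form *Tnni1* (NM_021467) gave 212, 282, 11.8 and 63.2, a difference of 0.31. Troponin C is the calcium sensor. Its fast form *Tnnc2* (NM_009394) gave 891, 16013, 4.07 and 11.8, a difference of 4.07, and the form of slow fibres and heart, *Tnnc1* (NM_009393), gave 65.9, 102, 1.21 and 3.69, a difference of 0.52. *Tnnt3* and *Tnni2* lie near each other in the genome with 1 protein-coding gene between them.

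The 7 genes of the Z-disc and the sarcomere scaffold were all at least 2-fold higher on the spinal cord array labelled KO, with a median difference of 3.53. *Actn3* (NM_013456), the alpha-actinin of fast fibres, gave 103, 1069.8, 0.909 and 1.78, a difference of 3.27. *Actn2* (NM_033268), the alpha-actinin of all fibres and heart, gave 88.0, 482, 2.71 and 19.3, a difference of 2.35. *Myoz1* (NM_021508), which binds calcineurin at the Z-disc, gave 41.2, 728, 3.86 and 7.27, a difference of 4.04. *Myot* (NM_001033621), which crosslinks actin at the Z-disc, gave 38.0, 681, 1.07 and 1.1, a difference of 4.06. The giant proteins of the sarcomere stood high as well. *Ttn* (NM_011652), the spring that spans it from Z-disc to centre, gave 95.3, 1579, 1.06 and 1.07, a difference of 3.95. *Neb* (NM_010889), which runs along the thin filament, gave 50.7, 629.6, 1.09 and 2.83, a difference of 3.53. *Tcap* (NM_011540), which caps titin at the Z-disc, gave 515, 5551, 30.7 and 64.7, a difference of 3.33.

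The 5 genes of calcium handling had a median of 2.29, and 3 were at least 2-fold higher on the spinal cord array labelled KO. *Ryr1* (NM_009109), the release channel of the sarcoplasmic reticulum, gave 39.2, 533, 13.2 and 30.2, a difference of 3.66. *Cacna1s* (NM_001081023), the voltage sensor that opens it, gave 125, 1150.2, 193 and 424, a difference of 3.10. *Atp2a1* (NM_007504), the pump that returns calcium in fast fibres, gave 118, 619.9, 8.93 and 23.4, a difference of 2.29. The calcium buffers differed less. *Casq1* (NM_009813), the buffer inside the reticulum, gave 70.9, 139.6, 0.961 and 0.946, a difference of 0.88. *Pvalb* (NM_013645), the cytosolic buffer of fast fibres and also a well-known product of spinal and sensory neurons, gave 21848, 27588, 39.9 and 32.9, a difference of 0.24.

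For energy and oxygen supply, 6 of 7 genes were at least 2-fold higher on the spinal cord array labelled KO, with a median of 3.87. *Ckm* (NM_007710), the cytosolic creatine kinase of muscle, gave 51.5, 1319.7, 11.2 and 20.2, a difference of 4.58, or 23.9-fold. This was the largest measured value of the 40 under the reported scaling, whereas *Acta1* at 4.86 exceeded *Ckm* at 4.74 with quantile normalization of the 4 arrays, and *Ckm* was 2.04 with normexp background correction. *Ckmt2* (NM_198415), its mitochondrial counterpart, gave 52.2, 1113, 1.59 and 4.44, a difference of 4.31. *Mb* (NM_013593), the oxygen store myoglobin, gave 122, 2157, 0.942 and 0.938, a difference of 4.04. Glycolysis and glycogen use were less uniform. *Pgam2* (NM_018870), the muscle phosphoglycerate mutase, gave 28.3, 443, 6.95 and 6.59, a difference of 3.87. *Eno3* (NM_001136062), the muscle enolase, gave 1299, 3767, 35.9 and 330.2, a difference of 1.43. *Pygm* (NM_011224), the muscle glycogen phosphorylase, which is also made in astrocytes, gave 6798, 8085, 153 and 147, a difference of only 0.15. *Cox6a2* (NM_009943), the muscle form of a cytochrome c oxidase subunit, gave 287, 2563, 10.7 and 32.1, a difference of 3.06.

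The 4 genes of muscle regulation had dim probes in 3 cases. *Trim63* (NM_001039048), the ubiquitin ligase MuRF1 that turns over sarcomere proteins, gave 118, 1974, 15.5 and 73.0, a difference of 3.96. *Myf6* (NM_008657), the transcription factor MRF4 of mature fibres, gave 3.10, 78.5, 1.07 and 1.03, was not well above background on the WT spinal cord array, and was at least 16.4-fold higher on the array labelled KO. This bound of 4.03 was 3.51 with quantile normalization of the 4 arrays, 1.05 with flagged local backgrounds replaced and 0 with normexp background correction. *Myod1* (NM_010866), the transcription factor of myoblasts, gave 6.53, 7.07, 1.03 and 1.18, so that both spinal cord signals lay close to the background. *Chrna1* (NM_007389), a subunit of the acetylcholine receptor at the neuromuscular junction, gave 10.4, 24.8, 1.23 and 1.25, a difference of 1.16. Its second probe gave 9.11 and 6.41 in the spinal cord, a difference of −0.61 in the opposite direction.

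Of the 9 genes with more than 1 probe, *Chrna1* was the only one whose probes differed in sign in the spinal cord. The 4 probes of *Ttn* gave 2.60 to 3.95, with lower bounds for the dimmer pair, and the probes of *Myl1* gave 4.01 and 4.71. Those of *Pvalb* gave 0.24 and 0.25, so the small difference of this gene was seen on both of its probes.

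Fast and slow forms differed in size. The fast genes had a median spinal cord difference of 3.75, with 12 of 14 at least 2-fold higher on the array labelled KO. The slow genes had a median of 1.62, with 4 of 7 at least 2-fold higher, and none of them reached 8-fold. The shared genes had a median of 3.66, with 17 of 19 at least 2-fold higher. Of 7 pairs in which the fast and slow genes encode the same kind of protein, the difference was larger for the fast gene in 6. The fast gene exceeded the slow by 3.60 for *Myh4* over *Myh7*, by 3.54 for *Tnnc2* over *Tnnc1*, by 3.53 for *Tnni2* over *Tnni1* and by 2.18 for *Tnnt3* over *Tnnt1*. For *Mybpc2* over *Mybpc1* the excess was 1.56 and for *Myl1* over *Myl3* it was 1.30. In the remaining pair the bound for *Mylpf* lay 0.52 below the value of *Myl2*, which leaves the order of that pair undetermined. Under every alternative background correction and scaling the median of the fast genes stayed above that of the slow genes, the closest being 2.33 against 0.96.

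**Figure D2:**
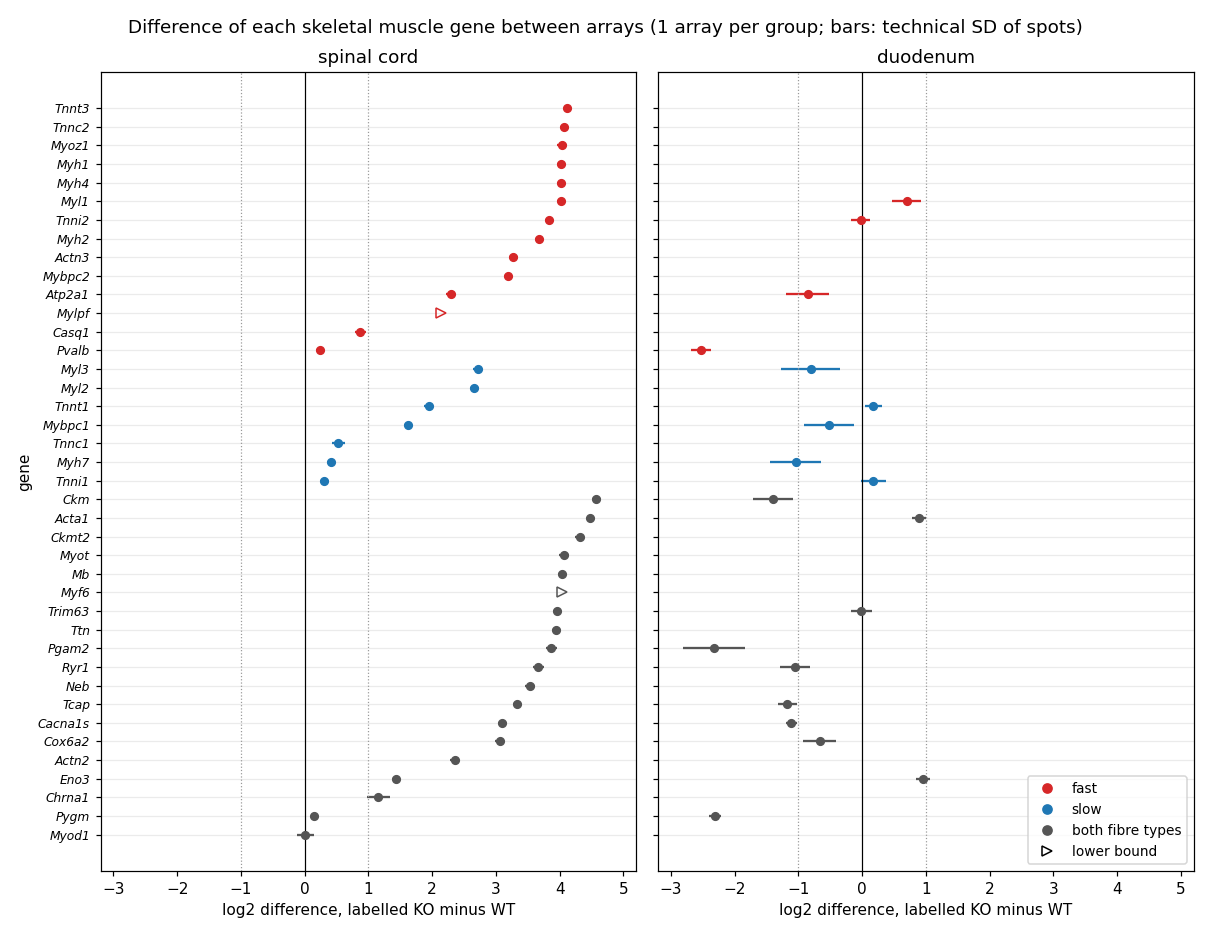
Log2 difference, array labelled KO minus WT, of each gene in the spinal cord (left) and the duodenum (right), with 1 array per group and bars for the technical SD of repeated spots. Triangles are lower bounds, and genes with no duodenum point had no difference measured there. Spinal cord values run from 0.01 for *Myod1*, whose sign turned under several scalings, to 4.58 for *Ckm*, and duodenum values run from −2.52 to 0.95, with the 8 lowest turning positive under scaling on spiked-in probes.

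Processing changed the size of the spinal cord difference more than its direction. With normexp background correction, which uses the local background of each spot, the median of the 40 genes was 1.26, when that of all genes was −0.43. At least 2-fold higher were 23 of 40, against 0.341% of all genes, and 3 were at least 2-fold lower, against 38.3%. Those 3 were *Myod1* at −2.40, *Chrna1* at −2.13 and *Tnnc1* at −1.17, while *Casq1* at −0.84 and *Tnni1* at −0.57 also turned sign. *Pygm* turned to −0.02 with scaling on E1A probes. Local background reached 15708 on the WT spinal cord array, against 47 on the spinal cord array labelled KO. When the flagged local backgrounds took the array median instead, the median of the 40 genes was 2.62. At least 2-fold higher were then 31, against 0.686% of all genes.

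**Figure D3:**
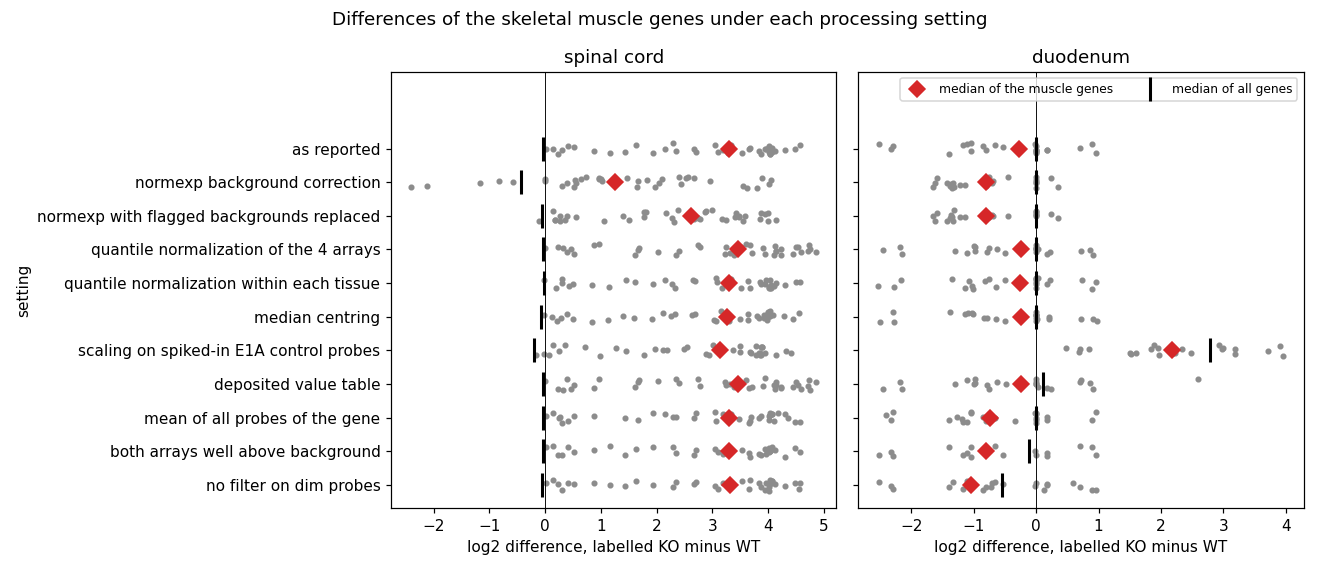
Log2 difference, array labelled KO minus WT, of each muscle gene (grey points) in both tissues under each way of processing the arrays, with the median of the muscle genes (red diamonds) and of all genes (black bars). The spinal cord median ran from 1.26 to 3.45 and stayed above 0 under every setting, although *Chrna1*, *Myod1*, *Tnnc1*, *Casq1* and *Tnni1* turned sign with normexp and *Pygm* with E1A scaling. The duodenum median turned from −0.27 to 2.18 when arrays were scaled on spiked-in E1A probes, with the median of all genes at 2.78.

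The promoters of these genes are the regions that muscle transcription factors bind, and 4 are shown as examples. They are *Tnnc2*, *Myl3* and *Ckm*, which had the largest measured spinal cord difference among the fast, slow and shared genes with a RefSeq promoter entry, and *Pygm*, which had the smallest difference among all genes with one. Each runs from 250 bases before the annotated start to 50 after it on GRCm38.p6, as given by RefSeq, at chr2:164779685-164779984 on the minus strand for *Tnnc2*, and on the plus strand at chr9:110763428-110763727 for *Myl3*, chr7:19410844-19411143 for *Ckm* and chr19:6384158-6384457 for *Pygm*. Capitals mark E-boxes (CANNTG) and, in *Myl3*, also a CArG box.
Tnnc2: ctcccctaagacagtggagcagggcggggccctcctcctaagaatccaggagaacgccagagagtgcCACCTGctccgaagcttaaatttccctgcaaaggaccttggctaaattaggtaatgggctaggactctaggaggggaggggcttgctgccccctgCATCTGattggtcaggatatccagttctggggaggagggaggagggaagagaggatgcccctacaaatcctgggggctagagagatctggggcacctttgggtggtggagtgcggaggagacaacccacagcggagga
Myl3: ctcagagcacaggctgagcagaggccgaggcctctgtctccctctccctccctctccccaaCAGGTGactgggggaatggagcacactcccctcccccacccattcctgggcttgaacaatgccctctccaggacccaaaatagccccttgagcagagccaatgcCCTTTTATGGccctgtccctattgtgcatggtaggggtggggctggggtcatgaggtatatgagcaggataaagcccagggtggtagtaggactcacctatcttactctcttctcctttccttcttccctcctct
Ckm: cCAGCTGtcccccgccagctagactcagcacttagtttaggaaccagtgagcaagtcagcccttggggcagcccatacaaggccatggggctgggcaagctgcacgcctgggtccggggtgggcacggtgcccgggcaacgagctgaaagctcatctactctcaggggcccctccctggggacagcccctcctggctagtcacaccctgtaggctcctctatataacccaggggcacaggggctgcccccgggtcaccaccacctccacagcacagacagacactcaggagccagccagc
Pygm: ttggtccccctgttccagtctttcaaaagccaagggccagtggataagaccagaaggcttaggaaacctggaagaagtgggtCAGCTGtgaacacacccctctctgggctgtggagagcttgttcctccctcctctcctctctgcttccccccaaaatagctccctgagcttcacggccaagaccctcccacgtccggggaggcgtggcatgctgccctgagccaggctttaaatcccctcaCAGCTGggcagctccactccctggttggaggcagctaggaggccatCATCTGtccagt
The E-box is the site of MyoD family factors, MEF2 binds an A and T rich consensus, and the CArG box is the site of serum response factor. The fast gene *Tnnc2* held 2 E-boxes and the slow gene *Myl3* held 1, none of them of the form CAGCTG. *Ckm* held 1 E-box and *Pygm* held 3, of which 2 were CAGCTG, so a CAGCTG was present in the promoters of both a gene with a large and a gene with a small spinal cord difference.

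Promoter entries were given for 30 of the 40 genes and were searched on both strands, with the first listed start of each gene. The form CAGCTG, favoured by MyoD family factors, was present in 17 of 30 promoters (56.7%), compared with 16.1% of all 27025 promoters of the same length. Any E-box CANNTG, which includes CAGCTG, was present in 26 of 30 (86.7%), compared with 72.1%. The MEF2 consensus was found in 5 of 30 (16.7%), compared with 3.26%, and the CArG box in 3 of 30, compared with 1.57%. TATAAA was found in 7 of 30 (23.3%), compared with 14.2%. A match is a description of the letters in this window and not of a bound site.

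Other skeletal muscle genes were read from a list of 60, of which 58 were on the array. In the spinal cord 54 were tested, with a median of 1.51. At least 2-fold higher on the array labelled KO were 31, against 2.28% of all genes, and none was at least 2-fold lower, against 0.892%. With normexp background correction 5 of the 54 were at least 2-fold higher, against 0.341% of all genes, with a median of −0.05. With flagged local backgrounds replaced 17 were, against 0.686%, with a median of 0.55. The 5 largest differences among those well above background on both arrays were *Csrp3* at 4.15, *Hspb7* at 4.15, *Myom2* at 4.03, *Myh8* at 4.0 and *Art1* at 3.79. *Csrp3* is a Z-disc LIM protein, *Hspb7* a small heat shock protein, *Myom2* an M-band protein and *Art1* a muscle ADP-ribosyltransferase. *Myh8*, the perinatal heavy chain, gave 1336, 22906, 1.1 and 1.74, and as a close relative of *Myh4* it may share transcripts with it on the array. Several other genes of the list were at or near the background. *Myf5*, *Pax7*, *Chrng* and *Chrne* were not well above background on either spinal cord array, and *Myog* gave 6.35 and 4.85, a difference of −0.49. *Musk*, the receptor kinase of the neuromuscular junction, gave 4.61 and 25.9, a difference of 2.39, and *Myh3*, the embryonic heavy chain, gave 42.4 and 35.7, a difference of −0.35.

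Among the 16315 named genes well above background on both spinal cord arrays, ranked by how much higher they were on the array labelled KO, the first 20 held 11 of the 40 genes and 3 genes of the wider muscle list. The first 100 held 28 of the 40 and 19 of the wider list. Of the 40 genes, 38 were among those ranked. The ranking rests on the contrast for which the 40 genes were selected, and the wider list was written with earlier results of these data known. Nothing is therefore read from these counts. Genes in neither list among the first 20 included *Prx*, *Cldn19*, *Trim54*, *Dhh* and *Fam178b*. *Prx* and *Dhh* are genes of Schwann cells, the myelin-forming cells of peripheral nerve.

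Markers of other tissues were read beside the muscle genes. Of 10 Schwann cell markers, 8 were at least 2-fold higher on the spinal cord array labelled KO, with a median of 1.66. They included *Prx* at 5.23, *Dhh* at 4.17, *Egr2* at 2.53, *Pmp22* at 1.98, *Drp2* at 1.34, *Ncmap* at 1.29 and *Scn7a* at 1.24. *Prx*, the periaxin of Schwann cells, gave 188 in WT spinal cord and 7564 in that labelled KO. Of 10 granulocyte markers, 7 were at least 2-fold higher, with a median of 1.19, and they were *Ctsg*, *Mpo*, *Elane*, *Ltf*, *Prtn3*, *Camp* and *S100a8*. Of 7 red cell markers, 5 were at least 2-fold higher, with a median of 1.21, and they included *Slc4a1*, *Hbb-bs*, *Alas2* and *Hbb-bt*. Of 10 markers of tendon, meninges and fibroblasts, 5 were at least 2-fold higher, with a median of 0.82, and they were *Col3a1*, *Thbs4*, *Dcn*, *Lum* and *Col1a1*.

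Markers of fat were mostly lower. Of 9 tested, 5 were at least 2-fold lower on the spinal cord array labelled KO and 1 higher, with a median of −1.01. *Ucp1*, the uncoupling protein of brown fat, gave 404 in WT spinal cord and 13.4 in that labelled KO, a difference of −5.02. *Cidea*, *Fabp4* and *Adipoq* differed by −1.11, −1.13 and −1.01, *Elovl3* had only a bound, at −2.09, and *Retn* differed by 1.37. The 11 neural markers had a median of −0.05, with none 2-fold apart. The heart list had 2 of 13 genes at least 2-fold higher, *Actc1* at 3.38 and *Ankrd1* with a bound of 3.88, and a median of −0.12. The smooth muscle list had only *Smtn*, at 1.30, of 9, and the cartilage and bone list only *Ibsp*, at 1.05, of 11. Of 10 pancreatic acinar genes tested, *Try4* and *Try5* had bounds of 2.37 and 2.52. No gene of the duodenal epithelium list was 2-fold apart.

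Summed over each list, in multiples of the 75th percentile of the array, the signal of the 40 muscle genes was 43.9 in WT spinal cord and 163 in that labelled KO. For Schwann cell markers it went from 48.3 to 75.4. *Mal*, also a myelin gene of the cord, made up most of each of these sums, with signals of 36933 and 39480. Its difference was −0.005, so the rise lay in the other markers of that list. The sum went from 60.9 to 118.0 for granulocyte markers, from 228 to 351 for red cell markers and from 8.08 to 16.5 for fibroblast markers. It went from 7.26 to 5.05 for fat markers and from 366 to 352 for neural markers. The part of these other cell types in the muscle gene differences was not tested, and with 1 array per genotype the genotype and the single animal or sample cannot be told apart.

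**Figure D4:**
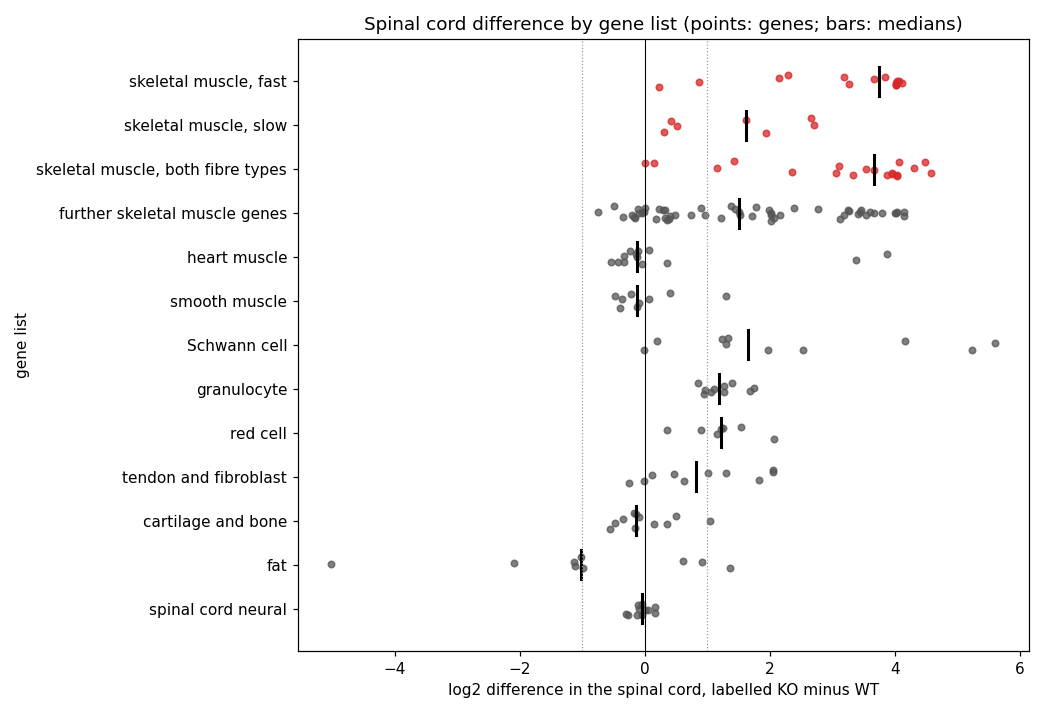
Log2 difference in the spinal cord, array labelled KO minus WT, for the genes of each list (points, 1 array per group, no error bars), with the median of each list as a bar and dotted lines at 2-fold. The fast and shared muscle genes have medians of 3.75 and 3.66 and the slow genes 1.62, beside 1.66 for the Schwann cell list, −1.01 for the fat list and −0.05 for the neural list.

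In the duodenum fewer of the muscle genes could be compared than in the spinal cord, and fewer of all genes as well. Of the 40 genes, 16 were not well above background on either duodenum array and 19 were well above it on both. Of all 32585 genes, these counts were 11150 and 16815. Of the 40, 5 remained. These 5, *Tnnt3*, *Tnnc2*, *Mybpc2*, *Myoz1* and *Actn2*, were detected only on the array labelled KO. In the reported scaling their levels there lay under the detection limit of the dimmer WT array, so they have no fold. Scaled on spiked-in E1A probes they had lower bounds of 0.85, 2.22, 1.51, 1.52 and 2.93, in that order. In the deposited table *Tnnt3* was 2.59 and *Actn2* 0.70, and the others stayed at 0. With no filter on dim probes they were 0.13, −0.71, −0.73, −1.33 and 0.58. Under the reported scaling, none of the 24 genes tested was at least 2-fold higher on the array labelled KO. The background was 7.2% of the 21435 genes tested. At least 2-fold lower were 8, against a background of 11.9%, though these 8 turned positive with arrays scaled on spiked-in E1A probes. The median was −0.27 with the 5 genes entered at 0, and −0.81 over the 19 genes detected on both arrays, when that of all genes was 0 and −0.11. Under the E1A scaling the median of the 24 was 2.18, when that of all genes was 2.78.

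The 8 lower genes were *Pvalb* at −2.52, *Pgam2* at −2.32, *Pygm* at −2.30, *Ckm* at −1.40, *Tcap* at −1.17, *Cacna1s* at −1.11, *Ryr1* at −1.05 and *Myh7* at −1.04, each of opposite sign under the E1A scaling. *Pygm* and *Pvalb* were among the genes with the smallest differences in the spinal cord, whereas *Ckm* and *Pgam2* were among those with large ones. The processed signals themselves were nearly equal for *Pgam2*, at 6.95 and 6.59, and for *Pygm*, at 153 and 147, and were 39.9 and 32.9 for *Pvalb*. For *Ckm*, *Tcap*, *Cacna1s*, *Ryr1* and *Myh7* they were higher on the array labelled KO. Apart from the lower processed signal of *Pvalb* and the slightly lower ones of *Pgam2* and *Pygm*, the lower values came from the 75th percentiles, 68.0 and 323. Relative to those percentiles both probes of *Cacna1s* were lower, at −1.26 and −1.11. Above 0 were *Eno3* at 0.95, *Acta1* at 0.90, *Myl1* at 0.70, *Tnnt1* at 0.18 and *Tnni1* at 0.18. With normexp background correction *Myl1* turned to −0.81, *Tnnt1* to −0.46 and *Tnni1* to −0.81, and with the mean of all probes *Myl1* was −0.33. The technical SD of the duodenum differences was 0.09 to 0.63, so the values of *Tnnt1*, *Tnni1*, *Mybpc1* at −0.52, *Tnni2* at −0.02 and *Trim63* at −0.01 lay within 1.5 technical SDs of 0.

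The wider muscle list held genes in both directions under the reported scaling. Of 29 genes tested in the duodenum, with a median of 0, 4 were at least 2-fold higher, against 7.2% of all genes. At least 2-fold lower were 8, against 11.9%. Under the E1A scaling all 29 were at least 2-fold higher, with a median of 2.62, as were 96.2% of all genes. With the deposited values, 8 of the 29 were at least 2-fold higher, as were 15.3% of all genes. The 5 largest differences among genes detected on both arrays were *Cav3* at −1.57, *Des* at −1.42, *Hspb6* at −1.39, *Art3* at −1.33 and *Mylk2* at −1.32. *Des*, the intermediate filament of all muscle types including the smooth muscle of the gut wall, gave 232 in WT duodenum and 411 in that labelled KO.

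Other markers differed in the duodenum as well, in values relative to the 75th percentile of each array that the E1A scaling would shift upward by the same amount for every gene measured on both arrays. All 6 red cell markers tested were at least 2-fold lower on the array labelled KO, with a median of −3.39, from *Slc4a1* at −2.09 to *Hba-a2* at −4.19. Of 14 pancreatic acinar genes, 11 were at least 2-fold lower, with a median of −1.79, from *Amy2a5* at −1.01 to *Ctrb1* and *Try5* at −2.17, although the processed signals of all 14 were higher on that array. Of 10 smooth muscle markers *Actg2* was lower, at −1.55, and the median was −0.41. *Fabp2* at −1.81 and *Apoa1* at −1.56 were lower among the 12 epithelial markers, *Elane* and *S100a9* among granulocyte markers, *Cox8b* among fat markers and *Fmod* among fibroblast markers. The Schwann list held *Pmp22* at −2.53, *Ncmap* at 1.11 and *Mal* at 1.80, and the neural list had a bound of 1.03 for *Syt1*. The heart and the cartilage and bone lists held no gene 2-fold apart. The summed signal over the 75th percentile was 9.78 and 6.01 for the 40 muscle genes, 132 and 76.5 for smooth muscle, 2869 and 1383 for epithelium and 1532 and 88.4 for red cells, in WT duodenum and in that labelled KO. The part of these lists in the muscle gene values was not tested.

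Between the WT tissues, 19 of the 40 genes could be compared. Their median was −0.34 for WT duodenum minus WT spinal cord, when the median of 16265 genes was 0.63, and 6 of the 19 lay above the median gene. With normexp and flagged local backgrounds replaced this turned, with a median of 0.96 against 0.74 and 10 of the 19 above the median gene. The range was wide, from *Pvalb* at −5.36 to *Cacna1s* at 4.36. Relative to the median gene, *Cacna1s* was higher in WT duodenum by 3.73 and by 2.03 to 3.98 under the other scalings and background corrections, and *Ryr1* was higher by 1.53, with 0.21 to 1.98 under the others. *Pvalb* was lower than the median gene by the same measure, at −5.99, and by −6.35 to −4.95 under the others.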

How the data were processed

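Total RNA of spinal cord and duodenum was labelled with Cy3 and hybridized to 1-colour Agilent mouse arrays, with all 4 arrays on 1 slide. The deposited scanner files, made with Agilent Feature Extraction 11.5.1.1 per the submitters' processing notes, give the brightness of each spot as a processed intensity, already corrected for background and spatial trend by that software. The authors also deposited a table of normalized log2 values. That table was matched by the log2 of the processed signal, floored at 1 and quantile normalized over the 4 arrays, with a median absolute difference of 0.000666 to 0.00243 per array. A floor or a quantile step compresses dim values, so the table was used only as an alternative.

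Here, control and outlier-flagged spots were dropped and replicate spots averaged per probe. The log2 of the processed signal minus the 75th percentile of the array was used, with the brightest probe on average standing for each gene. A gene was tested where its probe was well above background on at least 1 of the arrays compared. Where this held for only 1 of them, a lower bound was computed against the higher of the probe's own value and the lowest detected value of the dimmer array, and a bound that did not exceed 1-fold was entered as no fold at 0. All 40 genes passed in the spinal cord and 24 in the duodenum. The technical SD was taken from 399 probes spotted 10 times, over the 50 nearest in brightness.

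Probes were named through their RefSeq accession in a table of GRCm38.p6, which named 25868 of 26391 probes with an NM accession. That table was used for names, gene order and promoter sequences only. The fibre type, role and tissue marker lists were written from general knowledge, and the 40 genes and the lists were chosen with earlier results of these data known. All 40 genes were named, with the 5 largest differences in each tissue of the wider muscle list, the genes at least 2-fold apart of the other lists except a few that are not reported here, and *Ip6k2* as the check of the labels. The genes that led the spinal cord ranking, several single genes of the wider muscle list and the other two members of the *Ip6k* family were named after their values were seen.

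No test was made, since every group held a single array. Alternatives were normexp background correction (offset 50) with and without replacement of flagged local backgrounds, quantile normalization of the 4 arrays or within each tissue, median centring, scaling on 8 spiked-in E1A probes, the deposited table, the mean of all probes, only genes well above background on both arrays, no filter, and a 1.5-fold threshold. The arithmetic of the differences, not the spread between mice, was tested on simulated data with 200 changed genes, of which 100% were recovered among 24172 genes in the spinal cord and among 16815 in the duodenum. R 4.3.3, limma 3.58.1, Python 3.11.15, numpy 2.4.6 and pandas 2.3.3 were used.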

Additional observations from a re-analysis of the deposited data

Results flagged for a closer look

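For 5 of the 40 genes and 5 genes of the wider muscle list, the single spinal cord pair of arrays and the single duodenum pair differed in opposite directions by at least 2-fold each, higher in the spinal cord and lower in the duodenum on the arrays labelled KO. The difference between the tissues was not tested, and scaling on E1A probes, which shifts every gene measured on both duodenum arrays by the same amount and puts the median of all genes at 2.78, turns the duodenum values of the 10 positive. As duodenum minus spinal cord on the log2 scale it was −6.19 for *Pgam2*, −5.98 for *Ckm*, −4.71 for *Ryr1*, −4.50 for *Tcap* and −4.21 for *Cacna1s*. In the wider list it was −5.25 for *Hspb7*, −5.23 for *Cav3*, where the spinal cord value is a lower bound, −4.86 for *Des*, −4.74 for *Mylk2* and −2.77 for *Tpm2*.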

How the results depend on the processing

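In the spinal cord the median of the 40 genes kept its direction under every alternative run. It was 1.26 with normexp background correction, 2.62 with flagged local backgrounds replaced, 3.45 with quantile normalization of the 4 arrays, 3.45 in the deposited table and 3.13 with scaling on E1A probes, against 3.30 as reported. The count of genes at least 2-fold lower was 3 with normexp, when 38.3% of all genes were, against 0 as reported, when 0.892% were. *Chrna1* reversed to −2.13 with normexp. In the duodenum the reported median was −0.27, with 0 of the 24 genes at least 2-fold higher and 8 lower. Scaling on E1A probes gave 2.18, 20 and 0, when 96.2% of all genes were at least 2-fold higher and 0.084% lower. It reversed *Pvalb* to 0.48, *Myh7* to 1.97, *Ckm* to 1.61, *Tcap* to 1.84, *Ryr1* to 1.96, *Cacna1s* to 1.90, *Pygm* to 0.70 and *Pgam2* to 0.68. This scaling shifted every gene measured on both arrays by the same amount. The median of all genes was then 2.78, and that of the 24 genes lay 0.61 below it. The duodenum median was −0.81 with normexp, −0.81 with flagged backgrounds replaced, −0.81 over genes detected on both arrays, −0.74 with the mean of all probes and −1.04 with no filter. The count of lower genes was 5 with quantile normalization of the 4 arrays and 5 in the deposited table, when 8.80% and 8.76% of all genes were lower. With no filter, which tests all 40 genes, it was 21, when 38.5% of all genes were at least 2-fold lower. The count of higher genes was 1 in the deposited table, when 15.3% of all genes were higher. At a 1.5-fold threshold 3 of the 24 genes were higher and 11 lower. No share of all genes is given at that threshold, so nothing is read from these 2 counts. The cause of these changes was not tested. Over the alternatives that rescale or re-correct every gene, 117 of 280 values of single genes in the spinal cord and 106 of 168 in the duodenum moved by no more than their technical SD. No paired analysis was possible because the comparisons were made within a tissue, where each genotype had a single array and there was 1 pair only. Genes not well above background on the WT duodenum array could not be followed there, which holds for 21 of the 40. Of all genes, 51.8% were well above background on that array.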

Other observations

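The other kinases of the inositol hexakisphosphate family were read beside the muscle genes, since *Ip6k3* is known for its expression in skeletal muscle. *Ip6k3* (NM_173027) gave 55.4 in WT spinal cord and 78.4 in that labelled KO, a difference of 0.40, and was not well above background on either duodenum array. *Ip6k1* (NM_013785) gave 5619 and 5864 in the spinal cord, a difference of −0.04, and 377 and 2158 in the duodenum, a difference of 0.27.

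The tropomyosins, which lie along the thin filament, differed unequally in the spinal cord. *Tpm2* (NM_009416) gave 278 and 975, a difference of 1.71, while *Tpm1* gave 1181 and 1119.9, a difference of −0.18, and *Tpm3* gave 14762 and 15701, a difference of −0.01. *Fbxo32*, the ubiquitin ligase atrogin-1 that is usually named together with *Trim63*, gave 232 and 463, a difference of 0.90. *Sln*, the regulator of the calcium pump, gave 34.3 and 146, a difference of 1.99.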
